A study of Mus musculus with 11 samples.

Results

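The regions described here are the very wide H3K27me3 domains of mouse embryonic stem cells: the intervals of the authors' unified H3K27me3 peak list on chromosomes 1 to 19 that are 20 kb or wider, whatever other marks they overlap. Of 17634 such intervals on these chromosomes (18133 in the whole list), 865 met the rule. They were thus selected on 1 measured value, the width that the H3K27me3 peak calls gave, and methylation levels were not used in the choice. They made up 4.91% of the intervals and 27.3% of their bases, 28.0 Mb in all. Their median width was 27848 bp (quartiles 22846 and 35547 bp) and the widest spanned 247762 bp. They held 482671 CpGs, 17.2 per kb, against 18.0 per kb in intervals of 5 to under 20 kb and 18.3 per kb in those under 5 kb. The width threshold cut a continuous range. The 3 narrowest members measured 20003, 20005 and 20008 bp and the 3 widest intervals left out measured 19987, 19965 and 19962 bp. The former had methylation levels of 21.2, 79.2 and 15.4%, and the latter of 33.5, 30.3 and 36.4%, in the library from 250000 cells.

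All libraries came from 1 cell line, E14, a mouse embryonic stem cell line of 129/Ola background grown untreated in medium with serum and leukemia inhibitory factor. CUT&Tag-BS tethers a Tn5 transposase to chromatin with an antibody against a histone mark, and the cut fragments are bisulfite converted and sequenced, so each read reports methylation of DNA taken from marked chromatin. The 11 samples were bisulfite libraries for H3K27me3 from 4000, 20000, 100000 and 250000 cells, 2 sequencing runs each (paired-end reads of 35 bp in run 1 and 75 bp in run 2) of H3K4me1 and of H3K9me3 bisulfite libraries from 250000 cells, and 1 control without bisulfite per mark, also from 250000 cells. Each cell number of H3K27me3 had 1 library, so the spread given below is the SD over the libraries from 20000, 100000 and 250000 cells (n = 3), and no test across cultures was possible. The labels name the 2 runs of a mark only as runs. They may come from 1 library and were not taken as replicates. RNA was not measured, so the identity of the cells could not be checked on marker transcripts.

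H3K27me3 is laid down by Polycomb repressive complex 2. In embryonic stem cells it is known for covering CpG islands of silent developmental regulators, and over clusters such as the Hox genes it spreads into long continuous domains. Methylation of cytosine in CpG pairs is found over most of the mammalian genome and is characteristically low in CpG islands. Bisulfite sequencing reads 5-methylcytosine and 5-hydroxymethylcytosine alike.

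The contrast that runs through these domains can be read in the DNA itself. The sequences below are the 250 bases just upstream of the start given by a RefSeq GRCm38.p6 promoter entry of 6 genes. Each of these starts lies in a very wide domain. The bases run 5′ to 3′ on the gene's strand, with every CG pair in capitals. The genes were chosen after their values were seen, 3 with dense CG pairs and low methylation and 3 with fewer pairs and high methylation.
Hoxd13: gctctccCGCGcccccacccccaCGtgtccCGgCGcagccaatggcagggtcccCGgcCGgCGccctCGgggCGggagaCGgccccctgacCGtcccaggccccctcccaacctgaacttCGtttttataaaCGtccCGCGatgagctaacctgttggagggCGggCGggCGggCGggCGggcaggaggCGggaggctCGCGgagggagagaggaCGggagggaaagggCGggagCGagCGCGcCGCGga
Six2: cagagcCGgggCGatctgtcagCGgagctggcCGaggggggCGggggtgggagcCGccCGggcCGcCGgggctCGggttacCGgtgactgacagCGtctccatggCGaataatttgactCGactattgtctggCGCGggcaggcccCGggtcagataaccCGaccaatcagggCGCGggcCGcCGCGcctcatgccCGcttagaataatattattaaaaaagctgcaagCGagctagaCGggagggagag
Pou3f2: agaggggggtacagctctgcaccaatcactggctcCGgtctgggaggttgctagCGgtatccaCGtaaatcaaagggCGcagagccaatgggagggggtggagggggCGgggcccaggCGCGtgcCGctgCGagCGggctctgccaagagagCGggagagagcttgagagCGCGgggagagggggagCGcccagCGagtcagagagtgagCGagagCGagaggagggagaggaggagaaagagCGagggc
Th: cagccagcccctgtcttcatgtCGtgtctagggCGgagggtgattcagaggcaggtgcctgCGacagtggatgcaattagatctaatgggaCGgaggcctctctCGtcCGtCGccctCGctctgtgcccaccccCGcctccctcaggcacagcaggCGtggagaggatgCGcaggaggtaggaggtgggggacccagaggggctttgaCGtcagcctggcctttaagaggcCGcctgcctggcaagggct
Fgf6: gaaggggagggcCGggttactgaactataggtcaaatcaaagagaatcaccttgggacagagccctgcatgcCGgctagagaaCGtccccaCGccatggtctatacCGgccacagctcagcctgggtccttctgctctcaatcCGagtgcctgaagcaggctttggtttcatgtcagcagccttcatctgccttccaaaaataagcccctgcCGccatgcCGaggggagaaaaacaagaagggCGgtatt
Tbr1: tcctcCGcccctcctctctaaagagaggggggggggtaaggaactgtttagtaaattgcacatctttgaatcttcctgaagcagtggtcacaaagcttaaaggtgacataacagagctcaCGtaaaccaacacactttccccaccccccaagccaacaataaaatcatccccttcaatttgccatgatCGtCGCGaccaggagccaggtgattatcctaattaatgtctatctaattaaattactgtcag

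Hoxd13 is the homeobox gene at the posterior end of the HoxD cluster. Its window, chr2:74667975-74668224 (plus strand), held 31 CG pairs and was methylated in 5 of 1051 calls of the 250000-cell library (0.476%, 95% Wilson interval 0.203 to 1.11%). The Six2 window, chr17:85688255-85688504 (minus strand), upstream of a homeobox gene of kidney progenitors, held 26 pairs and was methylated in 3 of 1237 calls (0.243%, 0.0825 to 0.711%). Pou3f2, a neural POU factor, had 18 pairs in chr4:22488367-22488616 (minus strand) and 2 of 1110 calls methylated (0.180%, 0.0494 to 0.655%). All 3 windows were also almost free of methylation at 100000 cells, with 0.420, 0.553 and 0.348%.

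The window of Th, which encodes tyrosine hydroxylase, the rate-limiting enzyme of catecholamine synthesis, had 13 pairs in chr7:142899996-142900245 (minus strand) and 77.3% of 216 calls methylated (71.3 to 82.4%). Fgf6, a fibroblast growth factor of muscle, had 9 pairs in chr6:127015292-127015541 (plus strand) and 86.2% of 203 calls methylated (80.8 to 90.3%). Tbr1, a T-box factor of cortical neurons, had 5 pairs in chr2:61804203-61804452 (plus strand) and 82.3% of 62 calls methylated (71.0 to 89.8%). This Tbr1 window lies inside the annotated gene, chr2:61802863-61814114, and is upstream only of the start in its promoter entry. The levels at 100000 cells were 83.6, 80.4 and 94.4%, the last on 18 calls. The Th and Fgf6 windows lay in domains with high levels over all calls (80.03 and 75.4%), whereas the Tbr1 window lay in a domain with a level of 24.1%.

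CG pairs in the upstream 250 bases were searched as the letters CG, which read the same on both strands. Among 848 promoter entries of protein-coding genes that start in a very wide domain, the median was 14 pairs, 99.1% held at least 1 and 29.95% held 20 or more. Over all 20085 such entries on these chromosomes the median was 10, with 93.7% and 24.6%. Counting the whole entry of 250 bases before to 50 after the start, 805 of the 848 had at least 20 calls in the 250000-cell library. Their median level was 1.65%, 72.2% were below 10% and 10.9% were at 60% or more. In 4087 entries starting in a narrower H3K27me3 interval, 77.8% were below 10% and 5.53% were at 60% or more. Of 14619 entries starting in no H3K27me3 interval, 2405 had at least 20 calls, with 94.9% below 10% and 1.58% at 60% or more. Over the whole entry, 45.8% of entries in very wide domains held 20 or more pairs. The share was 48.9% in narrower intervals and 32.9% outside any interval.

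The domains also cover microRNA genes, short regulatory RNAs of which several families are encoded within or beside developmental gene clusters. Of 919 hairpins in the RefSeq table on these chromosomes, 37 overlapped a very wide domain (4.03%). The 5 mature forms below, with the seed (bases 2 to 8) in capitals, were chosen, with their values known, as microRNAs of the Hox clusters and of neural development, and every annotated copy of each was covered. Other hairpins were covered too, among them Mir375 and Mir203.
miR-10a-5p: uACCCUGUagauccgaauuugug
miR-10b-5p: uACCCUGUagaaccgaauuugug
miR-196a-5p: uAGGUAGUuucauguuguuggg
miR-196b-5p: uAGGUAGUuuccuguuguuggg
miR-9-5p: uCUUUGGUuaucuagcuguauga

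The miR-10 pair shared a seed, and so did the miR-196 pair. Their genes sit inside the 4 Hox clusters, in domains with levels from 13.0 to 15.8%. Within these domains the surroundings of the hairpins differed. In 1000 bp centred on the hairpin, the level at 250000 cells was 1.65% at Mir196b (4190 calls), 23.9% at Mir196a-2 (1529 calls), 33.0% at Mir10a (394 calls), 56.1% at Mir10b (968 calls) and 92.3% at Mir196a-1 (78 calls). miR-9-5p, a neural microRNA, is encoded by Mir9-1, Mir9-2 and Mir9-3 on chromosomes 3, 13 and 7, and the same windows had levels of 4.43, 16.8 and 0.551%. The Mir9-3 window lay in a domain 129777 bp wide.

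Summed over calls, the methylation level in the 865 domains was 23.7% at 4000 cells, 23.9% at 20000, 24.6% at 100000 and 24.2% at 250000. The 3 larger libraries averaged 24.3% ± 0.343 (SD, n = 3). The level of H3K4me1 libraries in the same domains was 17.6% in both runs, and that of H3K9me3 libraries was 55.1% in run 1 and 55.4% in run 2. The order of the marks was thus H3K4me1 lowest, H3K27me3 between and H3K9me3 highest, with gaps far above the SD of the H3K27me3 libraries. These levels weight each CpG by the reads that each antibody drew from it, which the comparison at shared CpGs below takes into account. Intervals of 5 to under 20 kb had 23.5% and intervals under 5 kb 34.3% at 250000 cells.

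The depth behind these levels rose with cell number: 107569, 1511762, 8048332 and 13236551 calls in the domains from 4000 to 250000 cells. At least 1 call reached 16.4, 72.0, 94.8 and 97.3% of the CpGs. The domains took up 29.0, 30.6, 33.5 and 36.2% of each library's calls, although they held 2.37% of all CpGs in the table. H3K4me1 run 2 had 558131 calls there (5.83% of its calls) and H3K9me3 run 2 had 37629 (0.620%). H3K9me3 values for single domains therefore rest on few calls, a median of 31 per domain.

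Per domain, the level at 250000 cells ran from 4.31 to 91.8%, with a median of 28.6% (quartiles 19.99 and 42.2%). There were 217 domains below 20%, 408 from 20 to 40%, 113 from 40 to 60%, 92 from 60 to 80% and 35 at 80% or more. The medians in the libraries from 20000 and 100000 cells were 26.7 and 28.5%. Single domains kept their level between libraries: the median absolute difference from the 250000-cell library was 0.766 points at 100000 cells and 1.82 points at 20000 cells over all 865 domains, and 5.75 points at 4000 cells over the 785 domains with at least 20 calls.

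CpG density within the domain ordered the methylation level. In 1 kb tiles with 0 to 5 CpGs the level at 250000 cells was 72.8%, and it was 71.9% with 6 to 10, 59.98% with 11 to 20, 24.5% with 21 to 40, 9.54% with 41 to 60 and 3.82% with over 60. The SD over the 3 larger libraries was from 0.034 to 0.322 points in these 6 classes, far below the steps between the classes from 6 CpGs upward. The 2 sparsest classes differed by 0.926 points at 250000 cells, also above their SDs of 0.135 and 0.189. Of all tiles, 41.4% had at most 10 CpGs, 37.0% had 11 to 20 and 8.20% had over 40.

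**Figure D1:**
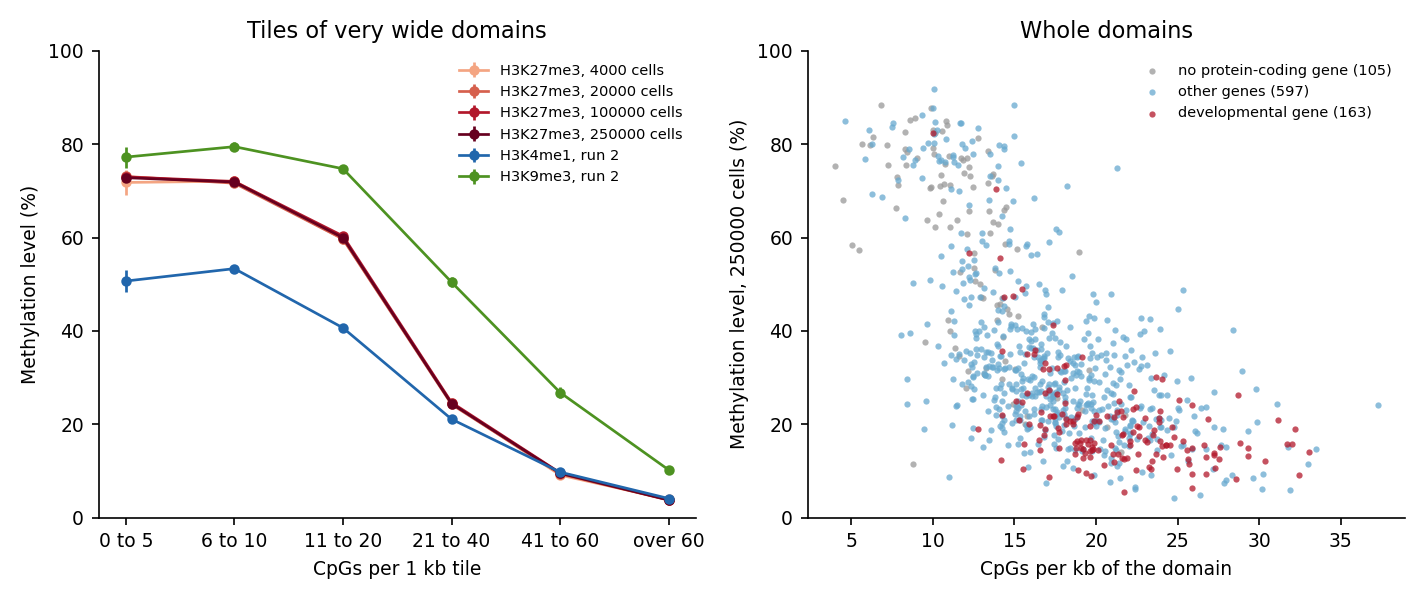
Left, methylation level (%) of 1 kb tiles in the very wide domains by CpGs per tile, 1 line per library, with 95% Wilson intervals that cover counting error only; the 4 H3K27me3 lines lie on each other and fall from 72.8 to 3.82% at 250000 cells. Right, each of 865 domains by CpGs per kb and level at 250000 cells (%), coloured by the genes covered; the 163 domains with a developmental gene sit mostly at the dense, low end.

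The same order held in the other marks. H3K4me1 run 2 fell from 50.7% in the sparsest tiles to 4.14% in the densest, and H3K9me3 run 2 from 77.2 to 10.3%. In the 3 classes up to 20 CpGs, H3K4me1 was from 18.5 to 22.1 points below H3K27me3. In the 2 densest classes the 2 marks differed by 0.251 and 0.313 points, with H3K27me3 the lower. H3K9me3 was above H3K27me3 in every class, by the widest margin (26.0 points) at 21 to 40 CpGs.

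In the 3 larger H3K27me3 libraries, very wide domains were less methylated than narrower H3K27me3 intervals at equal density, in every density class. In all classes up to 60 CpGs, narrower intervals were in turn below the 20 kb beside the domains outside any H3K27me3 interval. H3K4me1 run 2 had this order only with 21 to 40 CpGs. With 6 to 10 CpGs its levels were 53.4, 52.6 and 43.1%. With 11 to 20 CpGs the H3K27me3 levels at 250000 cells were 59.98, 66.0 and 76.1%, and with 21 to 40 they were 24.5, 29.3 and 59.9%. Flank depth was low there, 0.864 calls per CpG with 11 to 20 CpGs, against 14.4 in the domains. Over the 3 larger libraries, narrower intervals exceeded the domains by 5.58 ± 0.418 points with 11 to 20 CpGs and by 4.32 ± 0.520 points with 21 to 40 (SD, n = 3). The flanks exceeded them by 15.6 ± 0.575 and 34.8 ± 1.02 points (SD, n = 3). With 41 to 60 CpGs narrower intervals exceeded the domains by only 1.53 ± 0.178 points, and above 60 by 0.211 ± 0.085 points (SD, n = 3). Above 60 CpGs the flanks changed place: 3.82% in the domains, 4.12% in narrower intervals and 1.06% in the flanks at 250000 cells. The flanks minus the domains gave a mean of -2.83 ± 0.081 points there (SD, n = 3).

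Within single domains the contrast was present wherever it could be read. In the 689 domains with at least 20 calls both in tiles of at most 10 CpGs and in tiles of over 40, the sparse tiles were higher in 689. Their medians were 75.1 and 5.19%, and the median difference was 67.9 points. In 786 of the 865 domains there was both a tile at or below 20% and a tile at or above 80%. The 172 domains with no tile over 40 CpGs had a median level of 71.3%, and the 693 with such a tile had 24.5%. Across domains, CpGs per kb and level had Spearman's rho of -0.677 and Pearson's r of -0.665 (n = 865, given as a description, since both are computed from the same CpGs). Width and level had a rho of 0.036.

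The HoxD and Th domains show the range. The HoxD domain (chr2:74645104-74772410) had 26.7 CpGs per kb and a level of 13.0%. Of its 126 tiles of 1 kb with at least 20 calls, 42 were below 10% and 35 above 60%, so that tiles from 0.314 to 96.7% lay within 1 domain. None of its 29 tiles with over 40 CpGs exceeded 21.9%. The Th domain (chr7:142846491-142949175), similar in width, had 6.29 CpGs per kb and a level of 80.03%. Of its 68 tiles with at least 20 calls none held more than 24 CpGs, 0 were below 10% and 64 were above 60%.

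**Figure D2:**
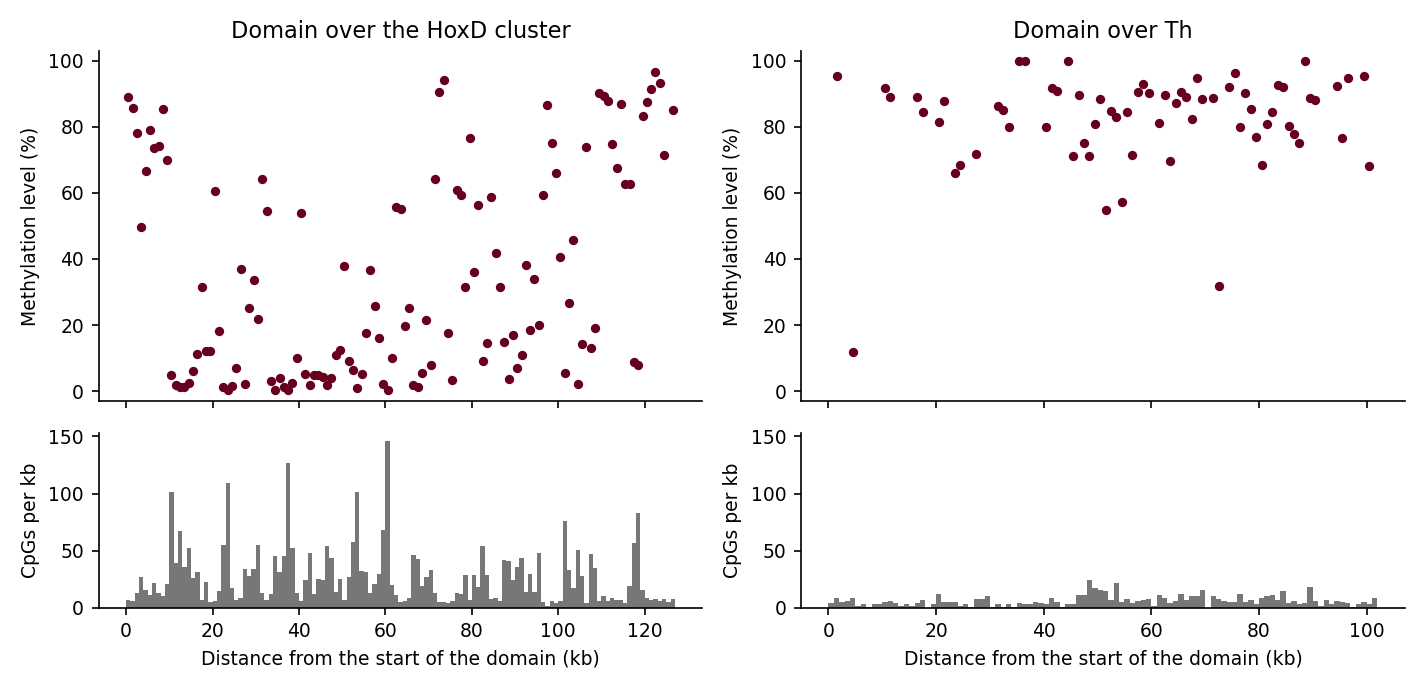
Methylation level at 250000 cells (%, tiles with at least 20 calls, upper panels) and CpGs per kb (lower panels) along the domains over the HoxD cluster and over Th, by distance from the domain start (kb). In the HoxD domain the tiles with over 40 CpGs lie at or below 21.9% between tiles that reach 96.7%, whereas 64 of 68 Th tiles lie above 60%.

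Parts of the domains that also carry H3K4me1 peaks were lower. H3K4me1 peaks overlapped 604 of the 865 domains (69.8%) and covered 9.23% of their bases. With 11 to 20 CpGs, tiles at least 50% inside an H3K4me1 peak had 26.3% at 250000 cells, against 64.8% in tiles outside. With 21 to 40 CpGs the values were 12.6 and 31.6%, and above 60 CpGs they were 3.46 and 4.50%. The 261 domains without an H3K4me1 peak had a median level of 38.6%, against 24.6% in the other 604. Their CpG density was lower as well, 13.7 against 18.6 CpGs per kb by median. H3K9me3 peaks touched 30 domains (3.47%), whose median level was 40.3% against 28.4% in the other 835.

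The level changed at the domain ends. Over 1730 ends it was 67.9% in the 5 kb outside and 36.4% in the 5 kb inside at 250000 cells, a step of 31.5 points. Over the same 1730 ends the step was 11.1 points in H3K4me1 run 2 and 14.8 points in H3K9me3 run 2. The mean step of the 3 larger H3K27me3 libraries was 31.3 ± 0.384 points (SD, n = 3). The first kb outside stood at 74.6% and the first kb inside at 56.4%, after which the level fell to 20.5% at 9 to 10 kb inside. Farther outside the level was lower again, 56.4% at 5 to 6 kb and 41.8% at 9 to 10 kb from all ends, where other H3K27me3 intervals can lie. CpG density rose over the same stretch from 10.9 per kb just outside to 13.0 just inside and 19.8 at 9 to 10 kb. Depth also changed at the ends, from 1.52 calls per CpG outside to 12.03 inside. At the 920 ends with no other H3K27me3 interval within 10 kb the step was larger, 39.0 points (71.2 against 32.2%).

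**Figure D3:**
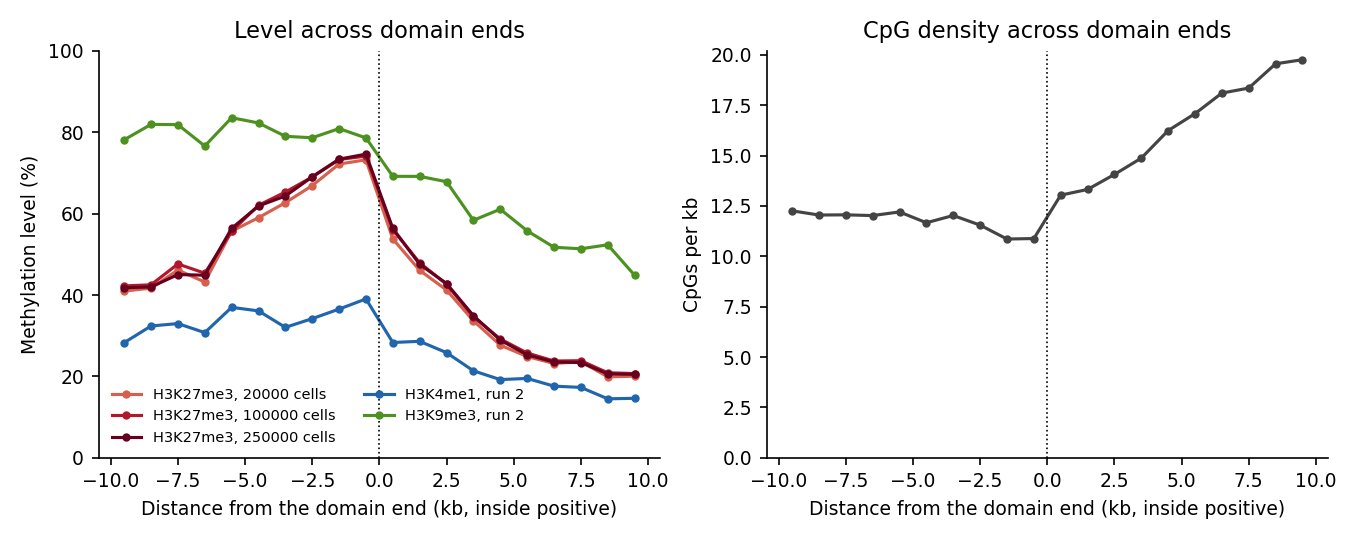
Left, methylation level (%) in 1 kb steps from 10 kb outside to 10 kb inside the 1730 domain ends, for the H3K27me3 libraries from 20000 cells upward, H3K4me1 run 2 and H3K9me3 run 2; at 250000 cells it peaks at 74.6% just outside and reaches 20.5% at 9 to 10 kb inside. Right, CpGs per kb over the same steps, from 10.9 just outside to 19.8 at 9 to 10 kb inside.

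The next comparison asked whether DNA drawn by the H3K27me3 antibody and DNA drawn by the H3K4me1 antibody differ in methylation within the same domain. Over all calls, the 250000-cell level was above that of H3K4me1 run 2 in 701 of 822 domains, by a median of 7.30 points, and by at least 20 points in 107. At CpGs called in both libraries, with each CpG compared only with itself, the median difference was -1.18 points (quartiles -2.83 and 0.90). It was negative in 539 domains and positive in 283, and 706 (85.9%) lay within 5 points. Over the 3 larger H3K27me3 libraries this median had an SD of 0.064 points. All 3 were set against the same H3K4me1 run, so this SD leaves out any spread of H3K4me1. Against H3K4me1 run 1 the median at 250000 cells was -1.36 points.

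The density classes showed the same shift. Shared CpGs made up 7.73% of CpGs in the sparsest tiles and 73.5% in tiles of 41 to 60. The all-call differences of 22.1, 18.5, 19.3 and 3.33 points in the 4 sparser classes became -0.819, -0.428, -1.49 and -3.16 points at shared CpGs. In the 2 densest classes they went from -0.251 and -0.313 to -2.11 and -0.943. The restriction to shared CpGs and the stratification by CpG both entered here. Summed over shared CpGs without stratification, the levels were 60.8% in H3K27me3 and 50.7% in H3K4me1 with 0 to 5 CpGs, 55.3 and 53.2% with 6 to 10, 40.3 and 40.5% with 11 to 20, and 17.0 and 21.04% with 21 to 40. In the 2 sparsest classes the sign therefore turned only with the stratification.

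A Cochran-Mantel-Haenszel test stratified by CpG, with Benjamini-Hochberg adjustment over 7866 H3K27me3 intervals, called a domain at an adjusted p of at most 0.05 and a difference of at least 10 points. It compares these 2 libraries, not the marks, and because calls on 1 fragment are not independent its p-values are too small. Of 822 domains tested, 8 were higher in H3K27me3, where 1.68% of all tested intervals were called, and 4 were lower, where 1.09% were called. As shares of the 822 these are 0.973 and 0.487%, no more than the background. When counts were divided by the mean number of calls per shared CpG, 0 domains were called in either direction (0.0127% of all tested intervals higher, 0.0% lower). The same test between the libraries from 250000 and 100000 cells called 0 of 865 domains, where 0.0068% of 14697 intervals were called higher and 0.0% lower. There the median was 0.019 points and no domain differed by more than 4.35 points. Between the libraries from 250000 and 20000 cells it called 0 of 865 as well, where 0.0209% of intervals were called in each direction. With the 100000-cell library in place of the 250000-cell library, 9 of 820 domains were higher than H3K4me1 run 2 (1.41% of all tested intervals) and 6 lower (0.842%). Without a minimum difference, 18 of 822 were higher, where 2.66% of all tested intervals were, and 176 lower, where 5.76% were. Fisher's exact test on all calls summed per domain also counts CpGs covered by only 1 of the libraries and does not stratify by CpG. It called 288 of the 822 higher, where 23.4% of all tested intervals were, and 8 lower, where 2.96% were. The 176 and the 288 made up larger shares of the domains than those called over all tested intervals. The 18 and the 8 made up smaller ones. At shared CpGs the domains had a median of 425 H3K4me1 calls, against 101 in all tested intervals. The calls are therefore described by their size and not as established differences between the marks.

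Among the 4 lower domains were those over Vwce, a gene for a von Willebrand factor C domain protein (chr19:10633061-10655682, -14.8 points, SE 3.32), over a stretch with no protein-coding gene (chr4:136903484-136925502, -12.6, SE 3.42) and over Man1c1, a Golgi mannosidase (chr4:134632499-134661718, -12.5, SE 3.13). The deepest of them covered part of Tbx5, a T-box factor of heart and forelimb (chr5:119813036-119849509). Its level at shared CpGs was 19.1% of 16200 calls in H3K27me3 and 30.7% of 460 calls in H3K4me1, a stratified difference of -11.96 points (SE 1.69, adjusted p = 2.78e-10 by the Cochran-Mantel-Haenszel chi-square test). Its difference between 250000 and 100000 cells was -0.473 points.

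The 5 largest differences in the other direction were over Sema3g, a secreted semaphorin (chr14:31214583-31235205, 18.4 points, SE 4.59), Osbpl5 and Mrgprg (chr7:143748473-143771427, 17.3, SE 4.87), Gna14, a G protein subunit (chr19:16460232-16497742, 14.6, SE 3.37), Elfn2 (chr15:78666421-78689418, 14.5, SE 3.26) and Spon2, an extracellular matrix protein (chr5:33198022-33243673, 13.7, SE 4.16). At Sema3g the levels at shared CpGs were 74.1% of 355 calls and 55.2% of 96 calls. These 5 rested on 63 to 230 H3K4me1 calls each. In 1 of the 8, the Calb2 domain (chr8:110138882-110180702, singled out after its values were seen), the stratified difference was 10.1 points although the summed levels at shared CpGs went the other way, 12.2% in H3K27me3 and 36.7% in H3K4me1. The 5 largest differed by at most 1.52 points between the libraries from 250000 and 100000 cells. Against H3K4me1 run 1, which was shallower and read with shorter reads, 0 of 793 domains were higher (0.714% of all tested intervals) and 3 lower (0.651%).

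**Figure D4:**
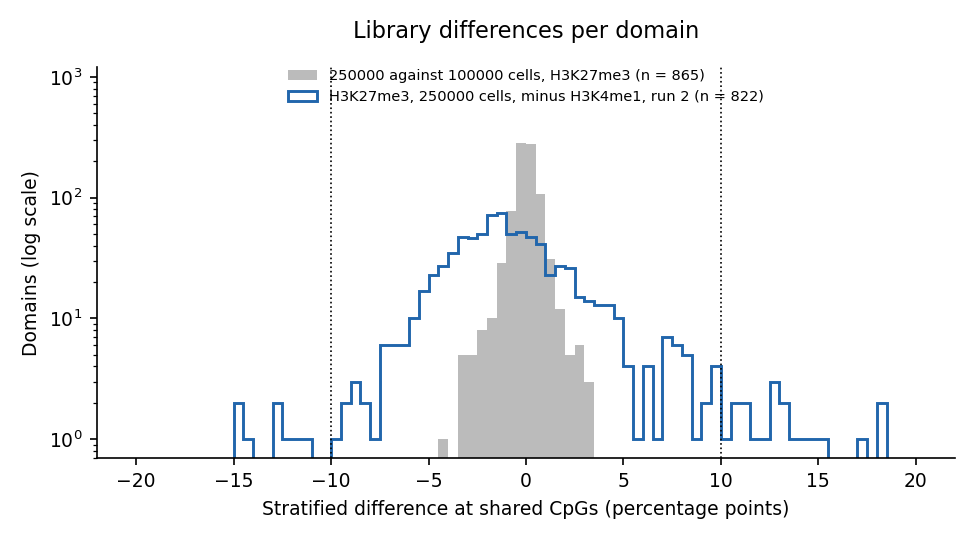
Histogram of the stratified difference per domain (percentage points, 0.5-point bins, log count axis) for H3K27me3 at 250000 cells minus H3K4me1 run 2 (822 domains, line) and minus H3K27me3 at 100000 cells (865 domains, grey); dotted lines mark 10 points. The grey histogram stays within 4.35 points and the line runs from -14.9 to 18.4 points.

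Against H3K9me3 run 2, 607 domains had enough calls. The stratified difference had a median of -2.64 points, 1 domain was called higher (0.304% of 2634 tested intervals) and 39 lower (4.71%), which are 0.165 and 6.43% of the 607. H3K9me3 peaks overlapped 5 of the 39 and 30 of the 607. The largest difference was over Zfp316, a zinc finger gene (chr5:143249488-143281464, -70.5 points). It was followed by the domains of En1, a homeobox gene of the midbrain (chr1:120590107-120621303, -51.9), and of Zic1 and Zic4, zinc finger genes of neural development (chr9:91349798-91391080, -48.2). At Zic1 and Zic4 the shared CpGs stood at 27.7% in H3K27me3 and at 82.5% of 543 calls in H3K9me3. These 3 were chosen after their values were seen.

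The 10 widest domains fell into groups with very different levels. The Hox clusters, whose homeobox genes set position along the body axis, took 4 of the 10: HoxC (chr15:102902161-103149922), HoxB (chr11:96250835-96386001), HoxA (chr6:52148916-52278778) and HoxD. Their levels at 20000, 100000 and 250000 cells were 15.2, 15.8 and 15.8% for HoxC, 12.6, 13.5 and 13.7% for HoxB, 13.0, 13.4 and 13.5% for HoxA, and 12.6, 13.0 and 13.0% for HoxD. H3K4me1 run 2 gave 12.8, 10.2, 13.1 and 11.3% in the same order, so both marks lay within 3.51 points of each other in each cluster. Hoxb13 lay in a separate domain (chr11:96158318-96210355) at 24.8%.

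Other very wide regulators were Six3 and Six2 (chr17:85597042-85698662) at 16.6%, Rhcg with Mir9-3 (chr7:79493996-79623772) at 25.1%, Lmx1b, a homeobox gene of limb and midbrain (chr2:33553158-33654276), at 32.6%, and Nkx1-1 with Uvssa (chr5:33384811-33496890) at 47.4%. Over Lmx1b and Nkx1-1 the H3K4me1 level over all its calls was far lower, 12.3 and 11.98%, a gap that is not matched by CpG. The other pair lay on distal chromosome 7: the Th domain and the second widest of all, chr7:143298776-143504693, over part of Kcnq1 and over Cdkn1c, Slc22a18 and Phlda2. The latter had 45.6, 47.6 and 50.3% at 20000, 100000 and 250000 cells.

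That stretch of chromosome 7, known for imprinted genes that are expressed from the allele of 1 parent, held 10 very wide domains between Tnnt3 and Mrgprg. Their levels at 250000 cells ran from 18.98% over Ascl2, a bHLH factor of the placenta (chr7:142955819-142989249), and 25.1% over Igf2, a growth factor (chr7:142614987-142668703), to 83.6% over Kcnq1, a potassium channel (chr7:143132020-143223555). This Kcnq1 domain and the Osbpl5 and Mrgprg domain were 2 of the 8 called higher than H3K4me1, the former by 10.6 points (SE 2.05). The stretch was singled out after its values were seen. Reads were not split by allele in the table, so a level near the middle does not tell 2 unlike alleles from mixed molecules.

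The 5 lowest levels were over developmental factors or a Polycomb gene. They were 4.31% over Bmi1, a subunit of Polycomb repressive complex 1, with Commd3 and Spag6 (chr2:18666615-18705492), 4.97% over Sp8 (chr12:118834708-118857704), 5.50% over Pou3f2 (chr4:22473369-22505950), 6.05% over Ebf3 (chr7:137303104-137334586) and 6.07% over Osr2 (chr15:35290538-35311334). Sp8, Ebf3 and Osr2 encode transcription factors of limb, neuron and palate development. Each of the 5 overlapped 3 to 5 H3K4me1 peaks.

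The 5 highest were 91.8% over Casd1 (chr6:4611933-4643018), 88.4% over Eya2 (chr2:165753306-165776915), 88.3% over no protein-coding gene (chr7:95886947-95909154), 87.8% over none (chr6:4577479-4600776) and 87.7% over Kif26b, a kinesin (chr1:178832898-178864484). The first and the fourth lie 11156 bp apart on chromosome 6. They rested on 564 to 4006 calls, against 23458 to 44167 in the 5 lowest. Their levels at 20000 cells were from 83.9 to 91.9%.

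Protein-coding genes touched by a very wide domain numbered 1132 of 20665 (5.48%), and 515 lay wholly inside (2.49%). A start in a domain was found for 681 of the 16457 genes with a promoter entry (4.14%). Any H3K27me3 interval touched 7502 (36.3%). A single gene was touched in 503 domains, 2 in 176, 3 or more in 81 and none in 105. The largest numbers were in the protocadherin clusters on chromosome 18, which encode neuronal adhesion proteins: 21 gene entries in chr18:37704030-37769456 (23.6%) and 15 in chr18:37004537-37026182 (42.5%). Many of these entries share exons, so they are not separate genes in full.

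Gene lists by family differed widely in how many members were covered, beside the 5.48% of all genes. All 39 Hox genes were in a very wide domain, spread over 5 domains. Other homeobox genes were covered in 78 of 113 cases (69.0%), Pax genes in 7 of 9, T-box genes in 10 of 16, Sox and Gata genes in 10 of 22, forkhead genes in 17 of 41, developmental signals in 21 of 52 and bHLH factors of neural and mesodermal fates in 20 of 50. The 8 lists together had 202 of 342 (59.1%), and 316 (92.4%) touched some H3K27me3 interval. Of genes tied to other programs, 1 of 24 pluripotency genes (Esrrb), 1 of 20 germline genes known for promoter methylation in somatic cells (Tdrkh), 0 of 28 housekeeping genes and 0 of 15 olfactory and vomeronasal receptors were covered. Some H3K27me3 interval of any width touched 16 of the 20 germline genes, 4 of the 24 pluripotency genes, 2 of the 28 housekeeping genes and 0 of the 15 receptors.

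The domains over the 8 developmental lists numbered 163 and had a median level of 17.6% (quartiles 14.2 and 22.1%). The 597 domains with other protein-coding genes had 29.7% (21.7 and 40.2%), and the 105 without any had 63.8% (43.1 and 75.6%). CpG density fell in the same order, 20.2, 16.9 and 12.05 CpGs per kb by median. By family, the median over domains was 13.7% for Hox, 15.7% for Sox and Gata, 16.5% for other homeobox genes, 16.7% for Pax, 17.9% for forkhead, 19.8% for bHLH, 20.7% for signals and 21.4% for T-box genes.

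Low examples outside the Hox clusters were Foxb1 at 9.03%, Tbx18 at 10.1%, Atoh1, a bHLH factor of cerebellar and inner ear cells, at 10.5%, Foxa2, a factor of endoderm and floor plate, at 11.2%, Sox1, a neural progenitor factor, at 12.3%, Pax9 at 12.5%, and Pax6, a factor of eye and forebrain, at 13.7%. The 2 developmental domains above 60% were at Pax3 (chr1:78106152-78149448), 82.5%, and at Foxn3 (chr12:99288308-99308394), 70.4%. Further high ones were Wnt8a at 56.7%, Pax5 at 55.6%, Foxs1 at 49.0%, Sox10, a neural crest factor, at 47.5% and Nkx1-1 at 47.4%. The Pax3, Pax5 and Foxn3 domains cover only part of the gene. Of the genes on the 8 lists, 5 touched 2 or more very wide domains, 3 of them Pax genes. A level given here is thus that of 1 domain and not of the whole gene. The Esrrb domain (chr12:86344810-86392969) stood at 84.5%, and the gene touched another domain at 26.1%.

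Genes were fewer in the domains of high methylation. Of the 127 domains at 60% or more, 60 touched no protein-coding gene. Protein-coding genes were touched by 98.2% of domains below 20%, 95.3% of those from 20 to 40%, 80.5% from 40 to 60%, 48.9% from 60 to 80% and 62.9% at 80% or more. H3K4me1 peaks followed a like order, in 92.6, 70.3, 61.1, 40.2 and 28.6% of domains. Median CpG density fell from 21.4 to 10.1 CpGs per kb over the 5 classes, and median depth at 250000 cells from 37.6 to 5.71 calls per CpG.

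The last comparison was of recovery by cell number. The unified list is the merge of the 5 H3K27me3 peak lists, the control without bisulfite included, so each list helped to define the domains and its overlap is a description. Peaks of the 4000-cell list touched 196 of 865 domains (22.7%), those of the 20000-cell list 850 (98.3%), and those of the 100000-cell and 250000-cell lists 864 each (99.9%). The share of domain bases covered rose more slowly, from 1.07% to 46.3, 82.6 and 92.1%. The control list covered 98.9%. At least 50% of the domain was covered in 0, 345, 841 and 863 domains from 4000 to 250000 cells.

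The width itself came mostly from the deeper lists. A single peak of 20 kb or more in the domain was found in 0, 121, 472 and 644 domains for the 4 bisulfite lists and in 819 for the control. In 186 domains only the control list had such a peak, and in 26 no list had it, so that they reached 20 kb by merging. Their width thus depends on peak calls whose settings are not given in the sources used here. At 20000 cells a domain was touched by a median of 2 peaks, and by up to 16.

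**Figure D5:**
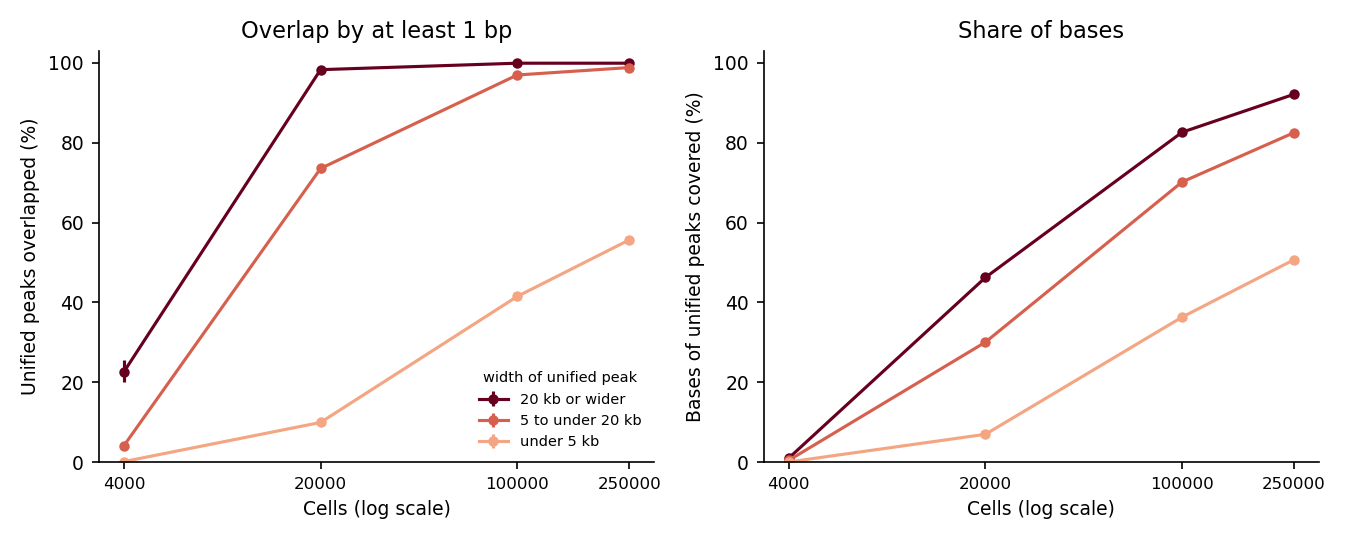
Share of unified H3K27me3 intervals overlapped by at least 1 bp (left, %, 95% Wilson intervals) and of their bases covered (right, %) by the bisulfite peak list of each cell number (log axis), for 3 width classes. Very wide domains stand highest throughout, at 98.3% of domains and 46.3% of bases with 20000 cells.

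Narrower intervals were overlapped less often at every cell number. At 4000 cells the shares were 22.7% for very wide domains, 4.18% for intervals of 5 to under 20 kb and 0.190% for those under 5 kb, and at 20000 cells they were 98.3, 73.5 and 9.98%. At 250000 cells they were 99.9, 98.8 and 55.7%. A wider interval offers more bases to overlap. Of the 488 peaks of the 4000-cell list, 243 (49.8%) lay in the very wide domains, and of the 7080 peaks of the 20000-cell list 1707 (24.1%) did.

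The domains found with few cells were the less methylated. Those touched by the 4000-cell list had a median level of 21.4% at 250000 cells, against 31.9% in the other 669, with 19.3 and 16.3 CpGs per kb and widths of 30442 and 26824 bp by median. The 15 domains missed by the 20000-cell list had a median level of 77.5%, 10.5 CpGs per kb and 3.93 calls per CpG at 250000 cells. From the lowest to the highest of the 5 level classes, 38.2, 25.2, 7.96, 1.09 and 0% of domains were touched by the 4000-cell list, and the median share covered by the 20000-cell list was 60.3, 45.0, 29.8, 27.3 and 13.9%. Methylation, CpG density and depth moved together here, and their separate parts in recovery were not tested.

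The 5 domains with the largest share covered at 4000 cells were those of Comp and Crtc1 (chr8:70362373-70384262), with 16.8% covered, Gdnf, a neurotrophic factor (chr15:7803003-7825989), with 16.1%, Foxf2, a forkhead factor of mesenchyme (chr13:31611387-31635238), with 13.0%, Pitx3, Elovl3 and Gbf1 (chr19:46127803-46152864), with 12.2%, and Pax1, a factor of the axial skeleton (chr2:147351966-147378423), with 12.2%. Their methylation levels at 250000 cells were 14.3, 16.9, 21.2, 25.1 and 19.2%. Each was touched by 1 or 2 peaks of the 4000-cell list. Domains over genes of the 8 developmental lists were touched by that list in 43.6% of cases, domains with other genes in 20.3% and domains with none in 3.81%.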

How the data were processed

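Per the submitters' processing notes, reads were handled with cutadapt 1.12, Bismark 0.23.0, Bowtie2 2.3.0, HOMER 4.10.3 and bedtools 2.29.2 on build mm10. Peak settings and the treatment of duplicate reads are not given in the sources used here. The deposited table holds raw counts of methylated calls and of all calls per CpG, with both strands on 1 line, made by the authors without normalization. The deposited peak lists hold positions without scores. On chromosomes 1 to 19 the H3K27me3 libraries had 370744, 4934467, 24056602 and 36558653 calls from 4000 to 250000 cells, H3K4me1 4859852 and 9573835, and H3K9me3 1932036 and 6065726. No column was left out (0).

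A level is methylated calls over all calls, in percent, and its Wilson intervals cover counting error only. Levels were computed with numpy 2.4.6 and scipy 1.17.1, in whole domains, in 1 kb tiles by CpG count and in 1 kb steps across domain ends. Peak positions were turned to 1-based coordinates. Library pairs were compared by a Cochran-Mantel-Haenszel test stratified by CpG at CpGs called in both, with at least 20 calls each, and adjusted over all H3K27me3 intervals tested. In simulated calls with 200 of 7866 intervals changed by 20 points, the test recovered 55.5%, and 3.48% of its calls were false. The simulated calls were drawn independently of each other, unlike measured calls on 1 fragment. These shares therefore need not hold for the measured data, and they cover intervals of all widths. Genes, promoters and microRNAs came from RefSeq GRCm38.p6, which shares its coordinates with mm10. All 395568 CG pairs of 31396 promoter sequences were found in the table.

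The domains named were the 10 widest, the 5 highest and 5 lowest levels, the 5 largest called differences in each direction, the 3 with most genes, the 5 with the largest 4000-cell coverage and the 3 on each side of the width threshold, others being marked where named. Of the 3 with most genes, HoxA and another protocadherin domain tied at 11. The domains, the gene lists and the tests were chosen with earlier results of these data known. The result of 1 further gene list is not reported here. Alternatives changed the width, tile size, minimum calls, difference, test, library and overlap, as described in the closing section.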

Additional observations from a re-analysis of the deposited data

How the results depend on the processing

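No paired analysis was possible because each cell number and each run has 1 library, so the groups compared share fewer than 2 replicate numbers. Depth limits the H3K4me1 comparison to 822 domains and the H3K9me3 comparison to 607.

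The level over all calls was 24.7% for widths of 30 kb or more and 33.8% for domains with no H3K4me1 peak, whose median was 38.6%. As a mean of single CpG levels with at least 5 calls it was 38.6%, with a median over domains of 42.2%, each CpG then having equal weight. Tiles with 0 to 5 CpGs per kb and tiles with over 60 stood at 73.4 and 3.58% with 500 bp tiles, 74.1 and 4.54% with 2 kb tiles, 71.5 and 3.66% more than 5 kb from the ends, and 73.5 and 4.50% outside H3K4me1 peaks. The step at ends with no other interval within 10 kb was 39.0 points.

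For H3K27me3 at 250000 cells minus H3K4me1 run 2, Fisher's exact test on all calls summed per domain reversed the median to 7.30 points and called 288 domains higher (23.4% of all tested intervals) and 8 lower (2.96%). That setting changes both the CpGs counted and the stratification, and the cause was not tested. The median was -1.36 points against run 1, with 0 domains called higher (0.714% of all tested intervals), and -1.06 points for the 100000-cell library. Among 618 domains holding a 20 kb peak of the 250000-cell list, an alternative chosen after seeing the data, it was -1.36 points. There 5 were called higher (1.68% of all tested intervals) and 2 lower (1.09%). A minimum difference of 20 points left 0 higher (0.801% of all tested intervals) and 0 lower (0.280%). Dividing counts by the mean calls per shared CpG also left 0 higher (0.0127%) and 0 lower (0.0%). No minimum difference gave 18 higher (2.66% of all tested intervals) and 176 lower (5.76%), the latter a larger share of the domains. Minimum calls of 10 or 50 moved neither count by over 1.5 times.

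With at least 50% of the domain covered, the shares recovered were 0% at 4000 cells, 39.9% at 20000 and 97.2% at 100000. For widths of 15 kb or more they were 18.2% at 4000 cells and 96.5% at 20000, and for 30 kb or more 28.2, 99.7, 100 and 100% from 4000 to 250000 cells. Protein-coding genes numbered 515 when wholly inside, 681 by their start, 1727 at 15 kb and 593 at 30 kb, where 127 genes of the 8 developmental lists remained covered.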
